A study of Mus musculus with 4 samples.

Results

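The genes described here are 10 imprinted genes that belong to a growth-restraint network studied in blood stem cells: H19, Igf2, Cdkn1c, Dlk1, Meg3, Grb10, Ndn, Peg3, Gnas and Plagl1. They were chosen by gene symbol, and all 10 were found among the 47561 gene symbols measured. RNA-seq had been performed on LSK cells, sorted from marrow as negative for lineage markers and positive for both Sca-1 and c-Kit, a gate that takes in blood stem cells and early progenitors. There were 2 libraries from Metrn cKO mice and 2 from Metrn f/f mice, each from a separate mouse. All were C57BL/6 mice aged 12 weeks. Metrn cKO mice carried a floxed Metrn gene and, in addition, LysM, which directs deletion to the myeloid lineage (macrophages, monocytes and neutrophils). Metrn f/f mice carried the same floxed gene without LysM and are labelled wild type. The comparison asked how LSK cells differ when myeloid cells lose Meteorin, a secreted protein. The gate is meant to leave out mature myeloid cells, but their RNA was found in these libraries, and deletion was not measured in any cell type. The unit is taken as FPKM, which divides fragments by the length of the transcript and by the size of the library, so levels can be set side by side between genes.

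An imprinted gene is transcribed mainly from the copy inherited from one parent, because DNA methylation laid down in the germ line differs between the maternal and the paternal copy. Many imprinted genes act on growth, and in mouse bone marrow a set of them is known to be enriched in long-term stem cells, which divide rarely. Among the genes that restrain growth, Cdkn1c encodes a cyclin-dependent kinase inhibitor that mouse stem cells need to stay quiescent, Ndn encodes necdin, a protein that limits their cycling, and Grb10 encodes an adaptor that dampens insulin and IGF receptor signalling. Plagl1 encodes a zinc finger factor that regulates other imprinted genes. H19 and Meg3 are long noncoding RNAs made from the maternal copy, and their loci also hold the paternally expressed growth factor gene Igf2 and the membrane protein gene Dlk1. Peg3 encodes a zinc finger protein, and Gnas encodes the stimulatory G protein alpha subunit together with several transcripts that are imprinted.

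Libraries of the same genotype differed widely. FPKM values summed to 562401 and 412955 in Metrn cKO 1 and 2, against 392717 and 671802 in Metrn f/f 1 and 2, and between 12175 and 12996 genes reached 1 FPKM. Kit, which encodes the sort marker c-Kit, had 25.9 and 116 FPKM in Metrn cKO 1 and 2, against 108 and 24.8 FPKM in Metrn f/f 1 and 2. Ly6a, which encodes Sca-1, ran the other way, with 48.4 and 38.2 FPKM in Metrn cKO, against 37.2 and 83.2 FPKM in Metrn f/f. Cd34 and Flt3, progenitor genes that the sort did not use, were above 0 in every library. The 9 macrophage markers summed to 178 and 42.4 FPKM in Metrn cKO, against 35.9 and 954 FPKM in Metrn f/f. The 6 neutrophil markers summed to 58277 and 1917 FPKM in Metrn cKO, against 2460 and 31878 FPKM in Metrn f/f. Metrn cKO 1 and Metrn f/f 2 thus held the most RNA of mature cells, one in each genotype. Metrn itself had 42.3 and 36.7 FPKM in Metrn cKO, against 29.3 and 66.3 FPKM in Metrn f/f, and did not pass the test (log2 fold change -0.16, SE 0.49). In bulk samples, fewer cells of a type and less RNA per cell cannot be told apart.

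Of the 10 imprinted genes, Gnas was abundant, 3 averaged a few FPKM and 6 averaged under 1 FPKM. Gnas averaged 261 FPKM over the 4 libraries. Cdkn1c averaged 2.55, Ndn 2.42 and Grb10 2.07 FPKM. Meg3 averaged 0.677 and Dlk1 0.282 FPKM, followed by H19 at 0.103, Igf2 at 0.0462, Plagl1 at 0.0389 and Peg3 at 0.0142 FPKM. In this order the range of Gnas stood clear of the next one, and the ranges of all other neighbouring genes overlapped. Within each library, however, Grb10 exceeded Meg3, Dlk1 exceeded H19 and Plagl1 exceeded Peg3 in all 4. Meg3 exceeded 42.9% of the genes above 0 in Metrn cKO 2 but 20.1% in Metrn cKO 1. The 6 low genes did not reach 1 FPKM in 2 libraries and were not tested. No gene passed when Metrn cKO mice were tested against Metrn f/f mice (limma, Benjamini-Hochberg adjusted p under 0.05): 0% of the 13148 tested genes were called higher and 0% lower. At an unadjusted p under 0.05, 8 genes (0.0608%) were higher and 31 (0.236%) lower, and none of the 4 tested imprinted genes was among them.

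**Figure D1:**
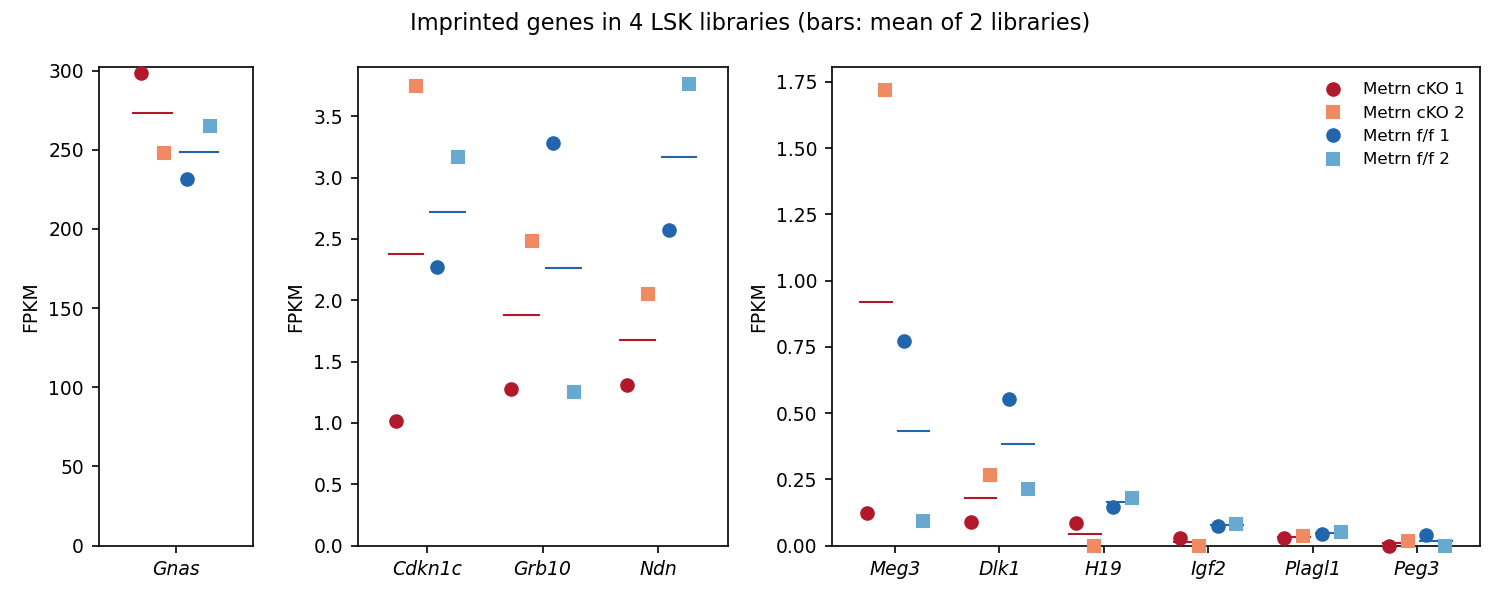
FPKM of the 10 imprinted genes in Metrn cKO (red and orange) and Metrn f/f (dark and light blue) libraries, with 1 point per library and a bar at the mean of each genotype; each panel has its own linear axis. Gnas lies between 232 and 299 FPKM, Cdkn1c, Grb10 and Ndn lie between 1.01 and 3.76 FPKM, and the other 6 genes lie at or below 1.72 FPKM.

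Ndn was the only tested member whose genotypes did not overlap. Ndn (chromosome 7, positions 62346569 to 62350262 of GRCm38, plus strand) had 1.31 FPKM in Metrn cKO 1 and 2.05 FPKM in Metrn cKO 2, against 2.58 FPKM in Metrn f/f 1 and 3.76 FPKM in Metrn f/f 2. Both Metrn cKO mice therefore lay below both Metrn f/f mice, with means of 1.68 ± 0.520 FPKM in Metrn cKO and 3.17 ± 0.838 FPKM in Metrn f/f (SD, n = 2 each). The log2 fold change was -0.64 (SE 0.54, 95% interval -1.92 to 0.65), and it did not pass by limma (adjusted p = 1.00). Between the pair of libraries most alike in mature cell RNA, the difference of Metrn cKO 2 from Metrn f/f 1 was -0.23 on the log2 scale. The difference of Metrn cKO 1 from Metrn f/f 2 was -1.04. With each library left out in turn, the log2 fold change stayed between -0.84 and -0.43. The 5 megakaryocyte markers summed to 20.98 and 32.3 FPKM in Metrn cKO 1 and 2, against 36.0 and 89.7 FPKM in Metrn f/f 1 and 2. The sums followed the order of Ndn over the libraries and did not overlap between the genotypes. Taken singly, 0 of the 5 markers lay lower in both Metrn cKO mice. Pf4 had 10.6 and 5.65 FPKM in Metrn cKO, against 10.4 and 63.1 FPKM in Metrn f/f. Itga2b had 7.49 and 20.1 FPKM in Metrn cKO, against 20.2 and 15.5 FPKM in Metrn f/f. All 5 markers were above 0 in every library, and each of the 4 tested ones had a negative log2 fold change that did not pass. Gata1, a transcription factor gene of the erythroid and megakaryocyte lineages, lay lower in both Metrn cKO mice, as Ndn did. Gata1 had 3.10 and 2.55 FPKM in Metrn cKO, against 4.02 and 17.8 FPKM in Metrn f/f. It was the only 1 of the 10 erythroid markers to lie so (10%), beside 5.73% of all tested genes. The 10 erythroid markers summed to 23818 and 2496 FPKM in Metrn cKO, against 3062 and 29270 FPKM in Metrn f/f, an order unlike that of Ndn. Macrophage markers too were highest in Metrn f/f 2, in another order over the other libraries. The part of these cells in the Ndn values was not tested.

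Cdkn1c (chromosome 7, positions 143458339 to 143461050, minus strand) had 1.01 and 3.74 FPKM in Metrn cKO 1 and 2, against 2.27 and 3.17 FPKM in Metrn f/f 1 and 2. Its lowest and its highest value both came from Metrn cKO mice, and the genotypes overlapped. The mean was 2.38 ± 1.93 FPKM in Metrn cKO and 2.72 ± 0.635 FPKM in Metrn f/f (SD, n = 2 each), and the log2 fold change came to -0.26 (SE 0.62, 95% interval -1.76 to 1.24). Without Metrn cKO 1 the log2 fold change was 0.36, and without Metrn cKO 2 it was -0.87, so the choice of the Metrn cKO library set its sign. The long-term stem cell markers, of which all 9 were above 0 in every library, summed to 25.8 and 129 FPKM in Metrn cKO, against 108 and 48.0 FPKM in Metrn f/f. Cdkn1c was thus lowest where these markers were lowest and highest where they were highest, but Metrn f/f 2 exceeded Metrn f/f 1 in Cdkn1c and not in the markers.

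Grb10 (chromosome 11, positions 11930508 to 12038683, minus strand) had 1.27 and 2.48 FPKM in Metrn cKO 1 and 2, against 3.28 and 1.25 FPKM in Metrn f/f 1 and 2. Each genotype held 1 low and 1 higher library, and the genotypes overlapped. The log2 fold change was -0.14 (SE 0.60, 95% interval -1.57 to 1.29). It turned positive when Metrn cKO 1 (0.17) or Metrn f/f 1 (0.32) was left out, and stayed negative when Metrn cKO 2 (-0.45) or Metrn f/f 2 (-0.61) was left out. Between Metrn f/f 1 and Metrn f/f 2 Grb10 differed 2.62-fold, more than the means of the genotypes did.

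Gnas (chromosome 2, positions 174284320 to 174346744, plus strand) had 299 and 248 FPKM in Metrn cKO 1 and 2, against 232 and 265 FPKM in Metrn f/f 1 and 2. It exceeded at least 98.3% of the genes above 0 in each library. Its values spanned 1.29-fold from the lowest to the highest library, the narrowest span among the 7 members above 0 in all libraries. The log2 fold change was 0.13 (SE 0.47, 95% interval -0.99 to 1.26). It was 0.00035 without Metrn cKO 1, 0.27 without Metrn cKO 2, 0.037 without Metrn f/f 1 and 0.23 without Metrn f/f 2, and 0.30 with quantile normalization. On a scale where each library sums to 1000000, Gnas had 531 and 601 in Metrn cKO, against 590 and 395 in Metrn f/f, and the log2 fold change was 0.23, beside a median of 0.15 over all tested genes on that scale. The order of its libraries thus depended on the scaling. The deposited value is 1 number per gene. It adds the transcripts from all start sites of Gnas, and the imprinted ones cannot be told apart from the main alpha subunit transcript.

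The promoter windows of these genes are shown because CG dinucleotides are where imprinting marks are laid and because the windows differ widely in them. Where a gene has several windows, the one with the most CG dinucleotides is shown. Each window runs from 250 bases before to 50 bases after a transcript start, 5′ to 3′ on the gene's strand, from RefSeq on GRCm38.p6. Capitals mark TGCCGC, the core bound by the imprint-keeping factor Zfp57 in mouse, or its reverse complement GCGGCA.
Ndn chr7:62348027-62348326 (plus strand): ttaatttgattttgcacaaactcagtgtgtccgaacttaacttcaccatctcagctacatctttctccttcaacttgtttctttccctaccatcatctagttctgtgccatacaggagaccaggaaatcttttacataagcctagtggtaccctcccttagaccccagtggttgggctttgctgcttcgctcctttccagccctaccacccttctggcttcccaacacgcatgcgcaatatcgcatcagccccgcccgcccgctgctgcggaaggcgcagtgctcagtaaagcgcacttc
Meg3 chr12:109540746-109541045 (plus strand): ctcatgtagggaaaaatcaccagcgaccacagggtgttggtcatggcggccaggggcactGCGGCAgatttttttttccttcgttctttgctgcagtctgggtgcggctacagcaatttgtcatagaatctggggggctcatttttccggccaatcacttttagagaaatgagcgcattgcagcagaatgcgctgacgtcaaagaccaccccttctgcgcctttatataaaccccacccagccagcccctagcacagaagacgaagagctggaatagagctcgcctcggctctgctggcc
Grb10 chr11:12037371-12037670 (minus strand): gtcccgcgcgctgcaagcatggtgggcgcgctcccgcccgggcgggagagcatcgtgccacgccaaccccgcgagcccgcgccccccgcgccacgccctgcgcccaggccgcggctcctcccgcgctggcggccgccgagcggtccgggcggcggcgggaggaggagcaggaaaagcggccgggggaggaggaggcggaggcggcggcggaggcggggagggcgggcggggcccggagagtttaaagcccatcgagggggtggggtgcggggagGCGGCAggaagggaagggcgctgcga
Gnas chr2:174329756-174330055 (plus strand): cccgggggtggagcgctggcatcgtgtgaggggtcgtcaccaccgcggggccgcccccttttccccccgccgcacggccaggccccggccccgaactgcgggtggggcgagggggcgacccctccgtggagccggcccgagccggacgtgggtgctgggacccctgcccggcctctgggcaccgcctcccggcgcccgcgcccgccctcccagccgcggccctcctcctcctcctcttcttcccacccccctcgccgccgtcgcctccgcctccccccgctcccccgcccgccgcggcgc
The Ndn window holds 11 CG dinucleotides, the Meg3 window 13, the Grb10 window 45 and the Gnas window 40. The windows not shown hold 1 for Meg3, 9 for Grb10 and 16, 27 and 28 for Gnas, and Ndn has a single window. The median over all 32851 windows of 300 bases was 7, and since the richest windows were picked, the printed counts are not set against it. TGCCGC on either strand occurs 1 time in the Meg3 window and 1 time in the Grb10 window. It occurs in 4 of the 16 windows of the 8 members that matched, against 11.6% of all windows. Methylation was not measured, so whether a printed window holds an imprinting mark is not known, and a match describes letters only.

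Meg3 and Dlk1, which share a cluster on chromosome 12, were low and varied strongly between mice of 1 genotype. Meg3 (positions 109541001 to 109571726, plus strand) had 0.123 and 1.72 FPKM in Metrn cKO 1 and 2, against 0.773 and 0.0924 FPKM in Metrn f/f 1 and 2. It was 14.0-fold higher in Metrn cKO 2 than in Metrn cKO 1, and 8.37-fold higher in Metrn f/f 1 than in Metrn f/f 2. These differences within a genotype exceeded the 2.13-fold difference between the means of Metrn cKO and Metrn f/f. Dlk1 (positions 109452823 to 109463336, plus strand) had 0.0899 and 0.268 FPKM in Metrn cKO, against 0.554 and 0.215 FPKM in Metrn f/f, and the genotypes overlapped. Rian, a maternally expressed noncoding RNA of the same cluster, had 0.0219 and 0.109 FPKM in Metrn cKO, against 0.405 and 0.300 FPKM in Metrn f/f. Rian lay lower in both Metrn cKO mice, whereas Meg3 did not. Mirg, the host RNA of many microRNAs in this cluster, was listed at 0 in all libraries.

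H19 and Igf2, neighbours on chromosome 7, were close to 0 in every library. H19 (positions 142575529 to 142578143, minus strand) had 0.0866 FPKM in Metrn cKO 1 and was listed at 0 in Metrn cKO 2, against 0.146 and 0.181 FPKM in Metrn f/f 1 and 2. Igf2 (positions 142650766 to 142666816, minus strand) had 0.0277 FPKM in Metrn cKO 1 and was listed at 0 in Metrn cKO 2, against 0.0742 and 0.0829 FPKM in Metrn f/f 1 and 2. Both genes were lower in each Metrn cKO mouse than in each Metrn f/f mouse, at levels that at most 22.4% of the genes above 0 fell below. Neither was tested, and an exact 0 can be a failed estimate. Mir675, the microRNA hairpin inside H19, had 0.169 FPKM and 0 in Metrn cKO, against 0.112 FPKM and 0 in Metrn f/f, and Igf2os, antisense to Igf2, was listed at 0 in all libraries. Since these genes are also active in fetal liver and stroma, markers of such cells are given beside them. The 7 hepatocyte markers summed to 12.9 and 46.9 FPKM in Metrn cKO, against 33.7 and 2.81 FPKM in Metrn f/f, and 5 of 7 were at 0 in Metrn f/f 2, where H19 and Igf2 were highest. Alb made up most of these sums in Metrn cKO 2 and Metrn f/f 1. Afp, another of the 7, had 0.552 and 1.61 FPKM in Metrn cKO, against 1.34 and 1.74 FPKM in Metrn f/f. It was highest in Metrn f/f 2, but its genotypes overlapped. The 8 stromal markers summed to 4.67 and 15.4 FPKM in Metrn cKO, against 14.9 and 6.39 FPKM in Metrn f/f, with Lepr at 0 in 3 libraries. Pdgfrb, also a gene of pericytes, made up most of the sums in both Metrn cKO libraries and in Metrn f/f 1, with 4.09 and 14.7 FPKM in Metrn cKO, against 13.4 and 2.84 FPKM in Metrn f/f. Cxcl12, which encodes a chemokine of marrow stroma, lay lower in both Metrn cKO mice and was highest in Metrn f/f 2, as H19 and Igf2 were. It had 0.443 and 0.299 FPKM in Metrn cKO, against 1.00 and 3.06 FPKM in Metrn f/f (log2 fold change -1.06, not passing). Of the 8 stromal markers, 2 (25%) lay lower in both Metrn cKO mice and 0 higher, beside 7.09% and 6.84% of genes above 0. The rest overlapped between the genotypes. The part of fetal liver or stromal cells in the H19 and Igf2 values was not tested.

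Plagl1 and Peg3 were the lowest of the 10. Plagl1 (chromosome 10, positions 13060504 to 13131694, plus strand) had 0.0273 and 0.0351 FPKM in Metrn cKO 1 and 2, against 0.0437 and 0.0497 FPKM in Metrn f/f 1 and 2, so the genotypes did not overlap. Peg3 (chromosome 7, positions 6703892 to 6730431, minus strand) was listed at 0 in Metrn cKO 1 and had 0.0180 FPKM in Metrn cKO 2, against 0.0388 FPKM in Metrn f/f 1 and a listed 0 in Metrn f/f 2. Usp29 and Zim1, imprinted neighbours of Peg3, were listed at 0 in all libraries.

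Counted over all 10 members, 4 were lower in each Metrn cKO mouse than in each Metrn f/f mouse (H19, Igf2, Ndn and Plagl1), and 0 were higher in this way. Over the 25637 genes above 0 in at least 1 library, 7.09% lay below in this way and 6.84% above. Over the 13148 tested genes, 5.73% lay below and 6.31% above. The 4 members are not independent observations, because H19 and Igf2 lie at 1 locus, and 3 of the 4 were under 0.2 FPKM in every library. On a scale where each library sums to 1000000, H19, Igf2 and Ndn still lay lower in both Metrn cKO mice, and Plagl1 did not. On that scale 6.78% of genes above 0 lay lower and 4.85% higher. With quantile normalization the lower members were Igf2, Dlk1 and Ndn, beside 7.65% of genes above 0 lower and 6.9% higher. Igf2 and Ndn were thus apart under all of these scalings. The median log2 fold change of the 4 tested members was -0.20, against 0.07 over all tested genes. The median log2 difference over all 10 members was -0.12, against 0.0080 over the 25637 genes above 0.

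**Figure D2:**
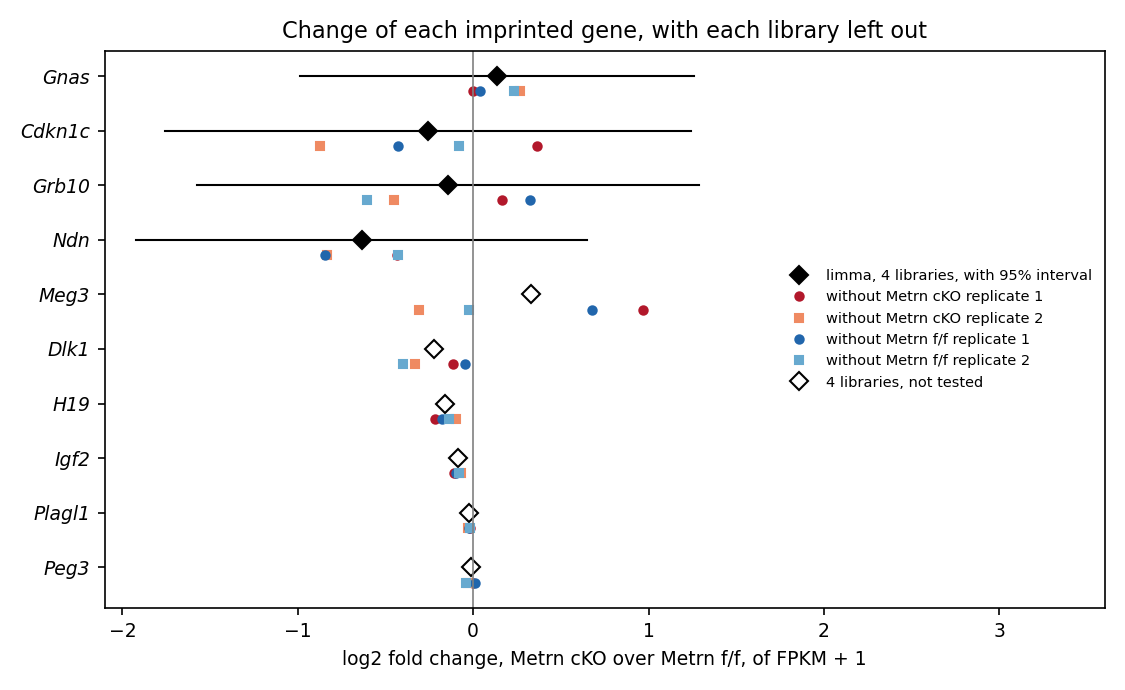
Log2 fold change of FPKM + 1, Metrn cKO over Metrn f/f, for each imprinted gene. Filled diamonds are limma estimates with 95% intervals for the 4 tested genes, open diamonds are untested differences, and the small points leave out the library named in the legend. All 4 intervals span 0. Ndn stays between -0.84 and -0.43 with any library left out, while Cdkn1c, Grb10, Meg3 and Peg3 have points on both sides of 0.

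Differences between mice of the same genotype were then set side by side. Dlk1, Grb10, Meg3 and Peg3, 4 of the 10, were higher in Metrn cKO 2 than in Metrn cKO 1 and higher in Metrn f/f 1 than in Metrn f/f 2. This was the pattern of 40.4% of the genes above 0 and of 49.1% of tested genes, so the share of the members was close to that of other genes. For Meg3 the differences were 1.28 within Metrn cKO and 0.70 within Metrn f/f on the log2 scale, and for Grb10 they were 0.61 and 0.93. Cdkn1c and Ndn were also higher in Metrn cKO 2 than in Metrn cKO 1, by 1.24 and 0.40, but were lower in Metrn f/f 1 than in Metrn f/f 2 (differences of -0.35 and -0.41). The genes said to restrain stem cell growth therefore did not share 1 order over the libraries.

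**Figure D3:**
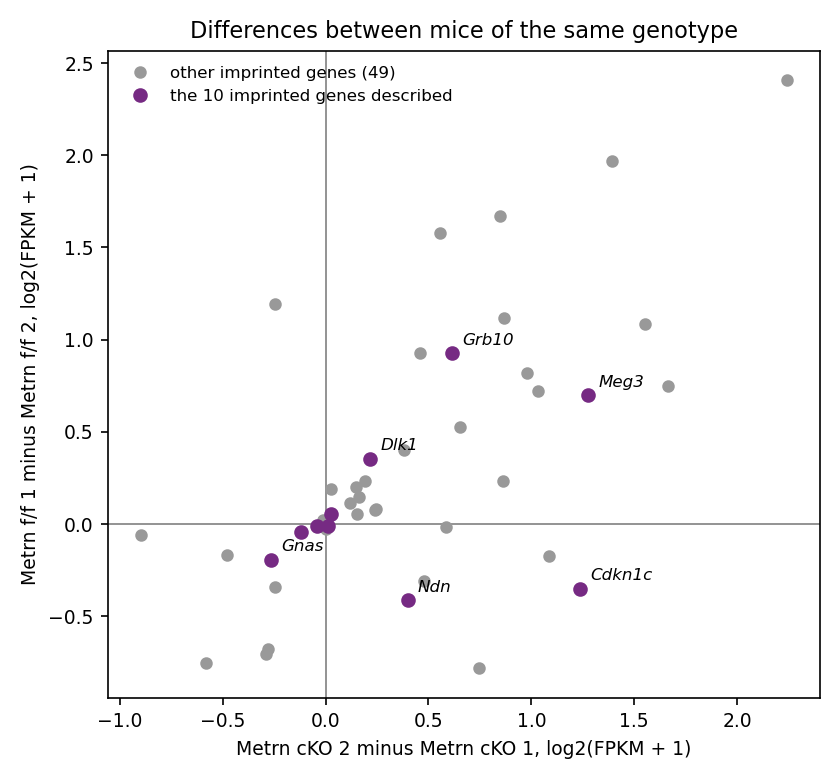
Difference between the 2 Metrn cKO mice (horizontal) and between the 2 Metrn f/f mice (vertical) in log2(FPKM + 1), with 1 point per gene, for the 10 imprinted genes (purple) and 49 other imprinted genes (grey). Meg3, Grb10 and Dlk1 lie in the upper right, and Cdkn1c and Ndn in the lower right.

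Other imprinted genes gave the wider frame. Of 25 listed genes expressed mainly from the maternal copy, 14 were tested, 0 passed and 8 had a positive log2 fold change (median 0.10). Of 26 listed genes expressed mainly from the paternal copy, 24 were measured and 6 tested, 0 passed and 4 had a positive one (median 0.13). Both medians were near that of all tested genes, 0.07. Over the 38 genes of both lists that were above 0 in at least 1 library, 3 (7.89%) lay lower in both Metrn cKO mice and 1 (2.63%) higher, beside 7.09% lower and 6.84% higher of all genes above 0. The share of lower genes was thus close to that of all genes. The lower ones were Slc22a18, Rian and Airn, and the higher one was Nap1l4. Slc22a18, a transporter gene near Cdkn1c, had 1.90 and 3.35 FPKM in Metrn cKO, against 4.04 and 4.09 FPKM in Metrn f/f (log2 fold change -0.51, SE 0.54). Nap1l4, a histone chaperone gene of the same region, had 71.8 and 73.1 FPKM in Metrn cKO, against 71.0 and 62.0 FPKM in Metrn f/f. Nnat, a paternally expressed gene for a membrane proteolipid, had 0.350 and 2.96 FPKM in Metrn cKO, against 1.29 and 0.0824 FPKM in Metrn f/f. Sgce, which encodes a sarcoglycan, had 2.35 and 5.10 FPKM in Metrn cKO, against 5.30 and 4.36 FPKM in Metrn f/f. Of the 20 tested genes of these lists, 13 followed the order seen for Meg3 and Grb10 within both genotypes, a share of 65.0% beside 49.1% of all tested genes. Of the listed genes, 11 were at 0 in all libraries.

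**Figure D4:**
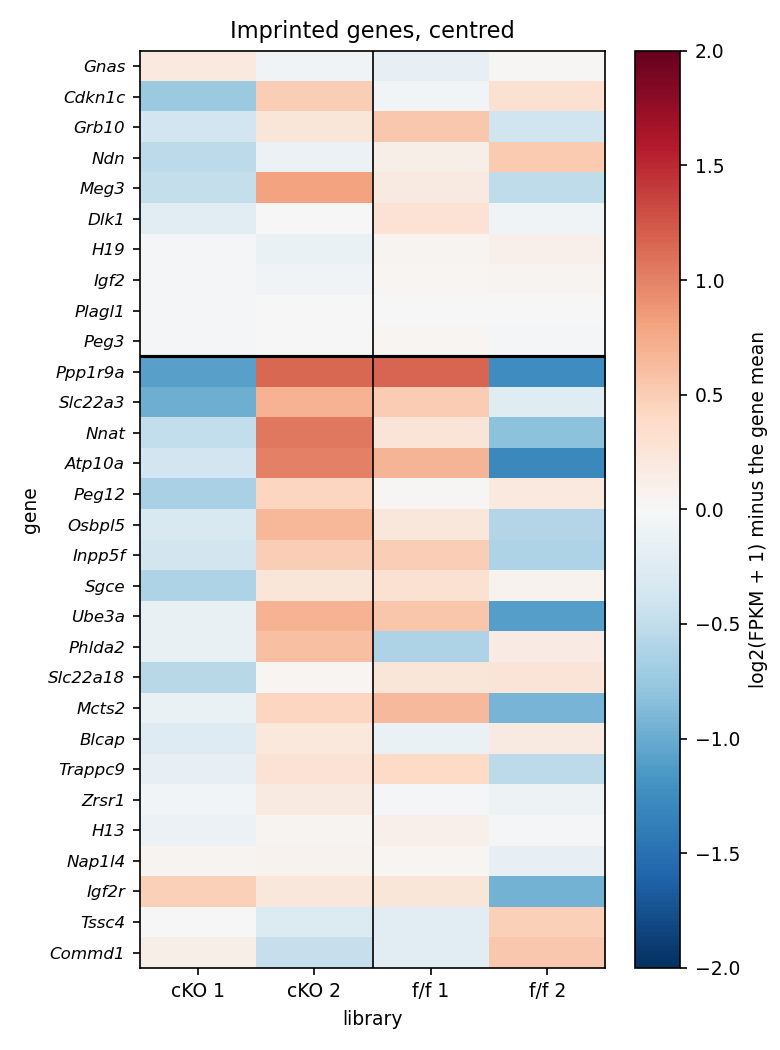
Log2(FPKM + 1) minus each gene's mean over the 4 libraries, for the 10 imprinted genes (above the line) and the 20 other imprinted genes that were tested (below it), with Metrn cKO libraries left of Metrn f/f libraries; red is above the mean and blue below. Below the line, 13 of 20 genes are higher in Metrn cKO 2 than in Metrn cKO 1 and higher in Metrn f/f 1 than in Metrn f/f 2. Above it, Ndn is blue in both Metrn cKO libraries and red in both Metrn f/f libraries.

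In the IGF pathway, on which H19, Igf2 and Grb10 act, the receptor genes Igf1r and Igf2r were higher than the ligand gene Igf1 in 3 libraries, but Igf1 was the highest of them in Metrn f/f 2. The ligand gene Igf1 had 0.339 and 0.415 FPKM in Metrn cKO, against 0.201 and 2.23 FPKM in Metrn f/f. Igf2r, the imprinted receptor gene that clears IGF2, had 5.06 and 4.11 FPKM in Metrn cKO, against 4.16 and 1.26 FPKM in Metrn f/f (log2 fold change 0.71, SE 0.61). Igf1r, the signalling receptor gene, had 6.34 and 13.01 FPKM in Metrn cKO, against 14.1 and 1.97 FPKM in Metrn f/f. Foxo1, a transcription factor gene held back by this pathway, had 5.95 and 4.27 FPKM in Metrn cKO, against 2.74 and 2.37 FPKM in Metrn f/f, and the genotypes did not overlap (log2 fold change 0.77, SE 0.52). Igfbp4, which encodes an IGF-binding protein, was the most abundant of the list at 188 and 246 FPKM in Metrn cKO, against 223 and 188 FPKM in Metrn f/f. Of 27 genes of the list, 19 were tested and 0 passed. A positive log2 fold change was found in 16 of them, with a median of 0.30. Metrn f/f 2 was the low library, since Metrn f/f 1 exceeded it by a median of 1.27 on the log2 scale. Subtracting Metrn f/f 1 from Metrn cKO 2 gave a median of -0.02.

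The 16 genes listed for imprint control include, besides genes that keep imprints, enzymes that write new DNA methylation or remove it. Of these 16, 13 reached 1 FPKM in 2 or more libraries, and 3 were under 1 FPKM in all libraries. Since the libraries also held RNA of mature cells, these values cannot be assigned to LSK cells alone. Zfp57, which binds methylated imprinting control regions, had 0.681 and 1.40 FPKM in Metrn cKO, against 1.39 and 1.13 FPKM in Metrn f/f. Trim28, its corepressor gene, had 132 and 185 FPKM in Metrn cKO, against 185 and 112 FPKM in Metrn f/f. Ctcf, whose product insulates Igf2 from its enhancers on the maternal copy, had 44.4 and 46.2 FPKM in Metrn cKO, against 46.1 and 17.1 FPKM in Metrn f/f. Uhrf1, which directs the maintenance methyltransferase to replicated DNA, had 103 and 81.8 FPKM in Metrn cKO, against 79.6 and 50.6 FPKM in Metrn f/f (log2 fold change 0.53, SE 0.42). Of 16 genes, 13 were tested, 0 passed and 12 had a positive log2 fold change (median 0.38). Here too Metrn f/f 2 was low, lying a median of 1.52 under Metrn f/f 1 on the log2 scale. The median difference of Metrn cKO 2 from Metrn f/f 1 was 0.0046.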

How the data were processed

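RNA-seq libraries came from sorted LSK cells of 2 Metrn cKO and 2 Metrn f/f mice. The authors made and deposited 1 FPKM value per gene and library, scaled by transcript length and library size. The file headers name only the library, so this unit was inferred from the values, which had decimals and summed to different totals. The submitters' processing notes name HISAT2 2.1, featureCounts 1.6.4, DESeq2 2.11.40.6 and build mm10 without their roles. Read totals are unknown: values as low as 1e-06 were listed and no whole-read steps were found. The strand setting is not given in the sources used here, so overlapping antisense transcripts (Nespas at Gnas, for example) may share reads. FPKM are shares of a library, so abundant transcripts lower all others.

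The 13148 genes that reached 1 FPKM in 2 or more libraries were tested with limma 3.58.1 in R 4.3.3 on log2(FPKM + 1) with an intensity trend, 2-sided, with Benjamini-Hochberg adjustment at 0.05. Fold changes on this scale understate those of low genes. Members and lists were chosen with earlier results of these data known. All members are named, and from other lists up to 4 genes, those with the smallest p or the highest mean; genes at a member's locus were added. Igf1, Igf1r, Zfp57, Airn, Kit and Afp were chosen after their values were seen, and Lepr too was named outside this rule. Coordinates are from GENCODE M21 on GRCm38, the assembly called mm10, which named 34529 of the symbols. Alternatives were another pseudocount, no filter, rescaling, quantile normalization, left-out libraries and a replicate block.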

Additional observations from a re-analysis of the deposited data

How the results depend on the processing

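No member was called under any alternative run. With each library left out in turn, when the lone library of a genotype is assumed to vary like the other genotype, genes called higher numbered 0 to 32 and genes called lower 0 to 5, and the log2 fold change of Cdkn1c ranged from -0.87 to 0.36 and that of Grb10 from -0.61 to 0.32. In these runs 1 to 2 members lay higher and 4 to 7 lower without overlap, which fewer libraries make easier to reach: 18.4% to 35.0% of genes above 0 then lay higher and 16.9% to 32.5% lower. In the other settings Ndn ran from -0.88 to -0.64. The replicate block left each member's log2 fold change as it was, by construction (-0.64 for Ndn), and called 3 genes higher and 1 lower. Mice with equal replicate numbers did not deviate alike, since their deviations from the genotype means had a correlation of -0.71 over tested genes. The labels do not say whether mice were bred or handled as pairs, and this correlation cannot tell. A crossed replicate block, chosen after seeing the data, called 37 genes higher and 65 lower. For the 4 tested members, 3 of the 16 values with a library left out changed sign, and 0 of the 12 values under another pseudocount, rescaling or quantile normalization did. That none passed says little about stability, since 2 mice per genotype leave wide intervals. The untested low members depended on the pseudocount: at 0.1 in place of 1, the log2 difference of H19 was -0.94 in place of -0.16. Read depth is unknown, so no counting error could be given for the members under 1 FPKM.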

Other observations

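Of 10 listed genes that restrain the cell cycle, the 8 tested ones were each higher than Cdkn1c, the imprinted inhibitor, in every library. The other two, Cdkn2a and Cdkn2b (named after their values were seen), were at or below 0.105 FPKM in every library. Cdkn1a, which encodes the inhibitor induced by p53, had 13.5 and 11.9 FPKM in Metrn cKO, against 19.7 and 40.2 FPKM in Metrn f/f, and the genotypes did not overlap (log2 fold change -1.09, SE 0.48; limma, unadjusted p = 0.0603, not passing after adjustment over all genes). Cdkn1b, another inhibitor of the same family (named after its values were seen), had 26.4 and 22.9 FPKM in Metrn cKO, against 23.6 and 22.8 FPKM in Metrn f/f. Of the 8 tested genes 1, Cdkn1a, lay lower in both Metrn cKO mice, beside 5.73% of tested genes.

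Genes with the pattern most like that of a tested member were found by the root mean square difference of gene-centred log2(FPKM + 1) values over the 4 libraries. For Ndn the nearest were Bbc3 (0.0254), Ifrd2 (0.0354) and 2410022M11Rik (0.0430), and for Grb10 they were Wdr60 (0.0203), Layn (0.0388) and Gm5577 (0.0397). For Cdkn1c they were Ccdc122 (0.0449), Pdcd1lg2 (0.0542) and Slc7a4 (0.0577), and for Gnas they were Psmd12 (0.0126), Apba3 (0.0156) and Prr14 (0.0177). Differences under 0.1 were found for 25 genes with Ndn, 109 with Grb10, 25 with Cdkn1c and 273 with Gnas, so over 4 libraries such likeness is common.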
